A study of Mus musculus with 6 samples.

Results

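The mitosis and kinetochore genes are 57 genes that a cell switches on to enter, carry out and leave mitosis, from the cyclins and kinases that start it to the proteins that pull the daughter cells apart. They were taken by symbol from a table of 54429 genes, and all 57 were listed, had counts in every library and passed the filter on low counts that left 16065 genes for testing. The table came from primary aortic endothelial cells (EC) of adult wild-type C57BL/6 mice. Cells of one condition received a lentiviral vector that overexpresses Meis1 (Meis1-OE) and cells of the other received a YFP control vector (YFP-CTRL), with 3 independent replicates each. In both conditions 100000 cells were plated per well, the medium was changed after 48 h, and YFP+CD31+VEC+ cells were sorted at 72 h, grown again to confluency and harvested for total RNA from 300000 cells. The vector, rather than the endogenous locus, drove Meis1. The EC were purchased as primary cells from a commercial supplier, and the paper describes the replicates of a condition as independent transductions. No source used here says how many mice gave the purchased cells, or whether the replicates came from the same batch. Libraries carry the letters A, B and C in each condition, and no label ties a letter to a replicate number. Wherever 3 values follow each other for a condition, they stand in the order A, B, C.

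Depth ranged from 34176592 to 47956569 counts per library. Meis1 was counted 135325, 157828 and 149221 times in Meis1-OE EC and 39, 58 and 85 times in YFP-CTRL EC, so that each library matched its label for the targeted gene. All 8 endothelial markers were detected in all 6 libraries, with Pecam1 (CD31) between 769 and 1161 CPM. CPM stands for the usual library-size-scaled count, adjusted here by TMM. Among these markers, by edgeR's adjusted p, Vwf was higher in Meis1-OE EC (log2 fold change 3.12, adjusted p = 0.0120) and Tek was lower (-0.78, adjusted p = 0.0351). Cdh5 (VEC, 1182 to 1452 against 1784 to 2628 CPM) and Kdr (261 to 367 against 457 to 1042 CPM) did not overlap either and missed the threshold (adjusted p = 0.0535 and 0.0504 from edgeR). The part of these differences in the levels of the mitotic genes was not tested. The 12 fibroblast and smooth muscle markers summed to 16.2 to 18.4 CPM in Meis1-OE EC and 34.9 to 54.3 CPM in YFP-CTRL EC, with Lum at 0 in every library. The sum hides unlike directions, since the 4 that could be tested had log2 fold changes from -1.96 to 3.66. By edgeR's adjusted p, 1 of the 4 was called higher in Meis1-OE EC and 0 lower. Of all genes tested, 4.14% were called higher and 2.73% lower. Among the 10 macrophage markers, C1qa, C1qb, C1qc, Tyrobp and Adgre1 were at 0 everywhere, and Cd68, which endothelium also contains, made up nearly all of a sum between 65.1 and 140 CPM. Of these markers 3 could be tested, and 0 were called by edgeR's adjusted p. At an unadjusted p under 0.05 from edgeR, 2 of the 3 were higher in Meis1-OE EC, where 12.8% of all genes tested were.

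Mitotic genes are silent in resting cells and accumulate late in the cell cycle, so their transcripts mark cells that divide. Repression in resting cells is laid down by the DREAM complex, built from the MuvB core, a pocket protein and E2f4, and the same MuvB core later joins B-Myb (Mybl2) and Foxm1 to activate these genes in G2 and M phase. MuvB touches DNA at the cell cycle genes homology region (CHR), often placed near a CCAAT box that binds NF-Y, whereas genes of S phase are mostly driven through E2F sites. Endothelium of a resting vessel hardly divides, and EC in culture stop dividing as they become confluent.

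The promoters were therefore read first, since none of their sequence was used to choose the genes. RefSeq promoters (build GRCm38.p6, from 250 bases before to 50 bases after a transcript start) were found for 48 of the 57 genes. A gene with several listed promoters counted as holding a motif if any of them did. Shares are therefore of genes with a promoter, and different motifs of a gene need not share a promoter. The CHR core TTTGAA was searched on both strands. It was held by 36 of these 48 genes (75%), against 14.8% of the 10394 tested genes with a promoter. Of all 27025 genes with a promoter, 20.2% held the core. In 31 of the 36 it began within 50 bases of the start. The box CCAAT, on either strand, was held by 34 of the 48 (70.8%), against 43.2% for the genes tested. Both motifs were held by 30 (62.5%), against 7.36%. A match of letters describes a sequence and is not a bound site.

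The following windows are the 120 bases just before the start, on the strand of the gene, with the CHR core and the CCAAT box in capitals (TTCAAA and ATTGG are the same motifs on the other strand). The first 5 are shown because they hold the CHR core close to the start, and the last 2 because neither motif occurs in their window or in the whole promoter.
Cdk1 (chr10:69352913-69353032, minus strand): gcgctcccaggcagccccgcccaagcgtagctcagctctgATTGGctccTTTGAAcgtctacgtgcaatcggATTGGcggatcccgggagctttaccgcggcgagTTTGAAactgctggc
Ube2c (chr2:164769809-164769928, plus strand): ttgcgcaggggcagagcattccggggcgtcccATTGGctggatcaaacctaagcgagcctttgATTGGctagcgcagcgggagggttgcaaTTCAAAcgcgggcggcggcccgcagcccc
Cdc20 (chr4:118437344-118437463, minus strand): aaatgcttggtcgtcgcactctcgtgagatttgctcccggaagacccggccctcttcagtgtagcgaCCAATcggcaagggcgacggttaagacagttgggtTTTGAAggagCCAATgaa
Kif11 (chr19:37376262-37376381, plus strand): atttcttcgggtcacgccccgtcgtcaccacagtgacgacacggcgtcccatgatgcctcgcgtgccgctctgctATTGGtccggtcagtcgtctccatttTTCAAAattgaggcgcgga
Cdca5 (chr19:6084977-6085096, plus strand): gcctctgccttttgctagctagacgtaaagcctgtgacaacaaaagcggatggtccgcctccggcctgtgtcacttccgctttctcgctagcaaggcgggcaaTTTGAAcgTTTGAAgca
Nusap1 (chr2:119618178-119618297, plus strand): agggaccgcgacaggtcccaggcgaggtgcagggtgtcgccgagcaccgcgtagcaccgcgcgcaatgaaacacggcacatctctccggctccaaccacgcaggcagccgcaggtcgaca
Mad2l1 (chr6:66535101-66535220, plus strand): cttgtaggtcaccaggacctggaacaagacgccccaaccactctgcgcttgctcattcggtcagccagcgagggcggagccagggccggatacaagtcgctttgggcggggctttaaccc

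Among lists of related genes the CHR core was less frequent, also in the list that is itself mitotic. It was held by 24 of the 51 genes with a promoter (47.1%) among 64 other mitotic genes. Among 32 genes of S phase and replication, 3 of the 26 with a promoter (11.5%) held it. An E2F site was searched in either of the forms TTTGGCGC and TTCCCGCC, on both strands. It was held by 2 of the 48 mitosis and kinetochore genes with a promoter (4.17%), near the 5.66% of the genes tested. The other mitotic genes had it in 10 of 51 (19.6%) and the S phase genes in 11 of 26 (42.3%). The 2 mitosis and kinetochore genes with such a site were Ncapd2, a condensin subunit, and Kif15, a spindle kinesin. The shares are given as descriptions without a test.

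**Figure D1:**
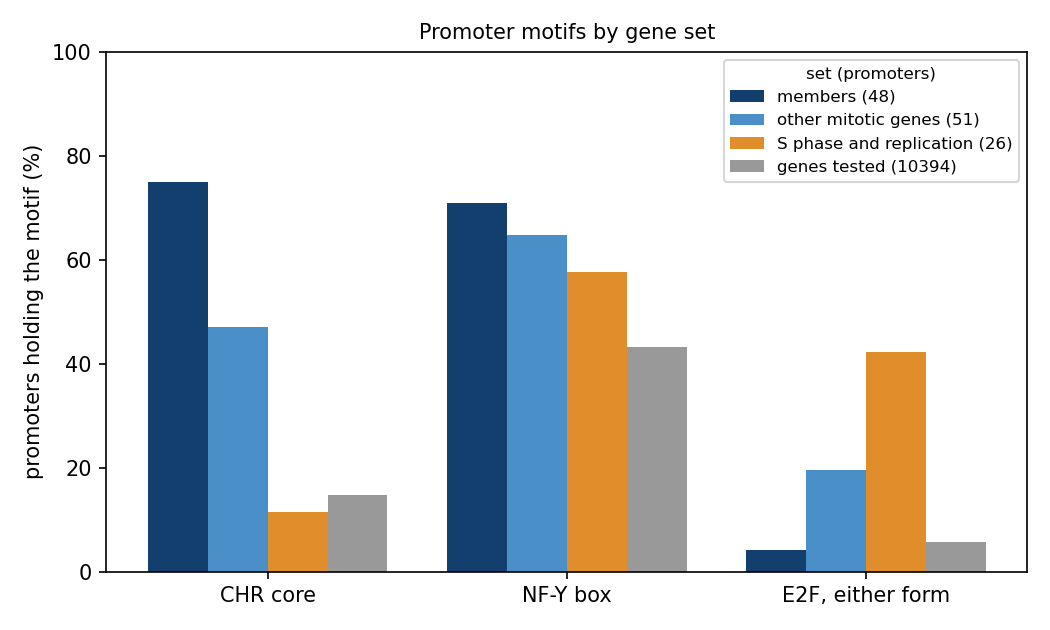
Share of genes with a promoter (%, vertical axis) that hold the CHR core, the NF-Y box or an E2F site in 4 gene sets. The legend gives the number of genes with a promoter in each set. The mitosis and kinetochore genes (members) stand highest for the CHR core at 75% and lowest for E2F at 4.17%.

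In all 57 genes the YFP-CTRL libraries stood in the order A, B, C from low to high, an order held by 25.6% of the genes tested. The 57 genes were chosen with earlier results of these data known, so this order is a description without a test. The 57 genes together took 0.0773%, 0.164% and 0.367% of the counts in YFP-CTRL EC and 0.451%, 0.422% and 0.413% in Meis1-OE EC. Their summed level was 778, 1793 and 3876 CPM in YFP-CTRL EC against 4087, 4096 and 4062 CPM in Meis1-OE EC. YFP-CTRL C therefore lay near the Meis1-OE libraries, whereas A and B lay well below them. From these bulk RNA levels, fewer dividing cells and less mitotic RNA per cell cannot be told apart.

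The spread among the control libraries was wide for every gene. The ratio of YFP-CTRL C to A had a median of 5.55 over the 57 genes and ran from 1.82 for Smc4 to 13.1 for Cenpa, and it was at least 5-fold for 37 genes. Its exact 95% counting interval lay above 1 for all 57 genes, which covers counting error between 2 single libraries and not differences between cultures. Over all genes tested the highest YFP-CTRL library exceeded the lowest by a median of 1.48-fold. Meis1-OE libraries, in contrast, were close to one another, with the highest a median of 1.07-fold and at most 1.18-fold above the lowest for the 57 genes, against a median of 1.18-fold over all genes tested.

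**Figure D2:**
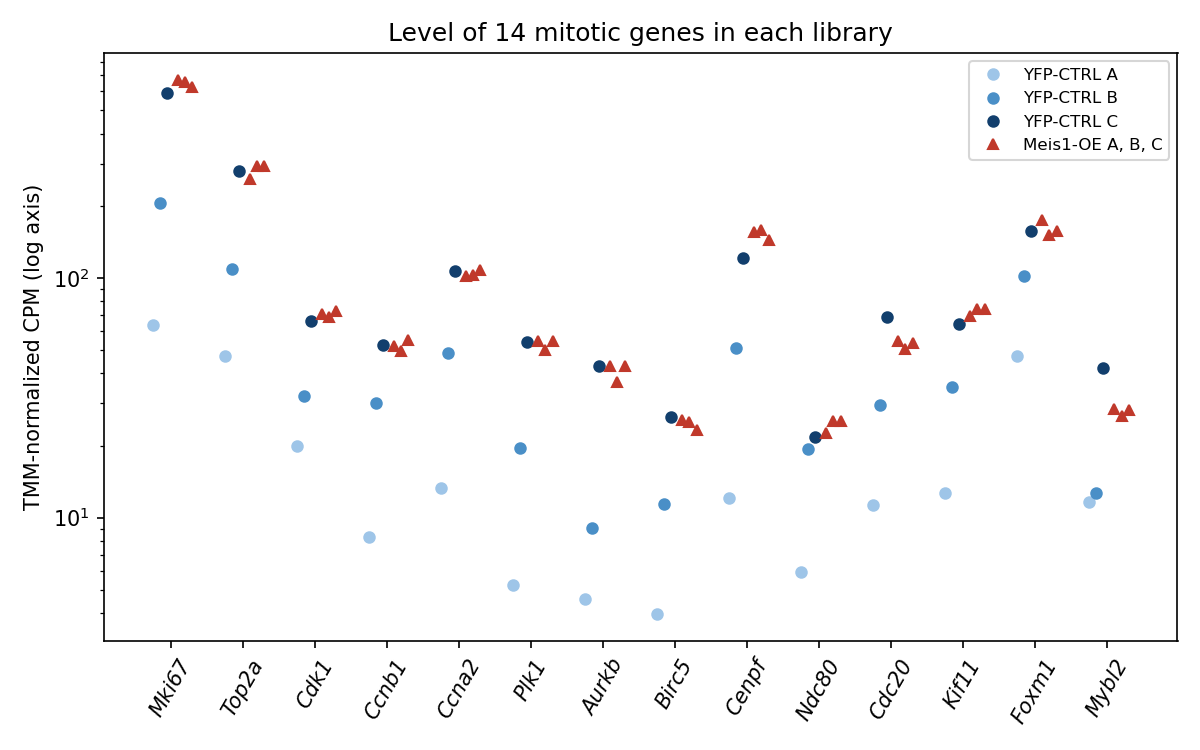
TMM-normalized CPM (log axis) of 14 mitotic genes in each of the 6 libraries, with YFP-CTRL libraries as circles and Meis1-OE libraries as triangles. YFP-CTRL A is lowest for every gene, and YFP-CTRL C lies above all triangles for Cdc20, Mybl2 and Birc5, below all of them for Mki67, Cdk1, Cenpf, Ndc80 and Kif11, and among them for the other genes.

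Cyclins, their kinase and the transcription factors of the programme carried this pattern to different degrees. Cdk1, the kinase that triggers mitosis, was at 19.9, 32.3 and 66.4 CPM in YFP-CTRL EC and at 70.9, 68.9 and 73.1 CPM in Meis1-OE EC, and the conditions did not overlap. Its partner Ccnb1 (cyclin B1) was at 8.30, 30.1 and 52.4 CPM against 51.9, 49.7 and 55.1 CPM. Ccna2 (cyclin A2), which acts from S phase to early mitosis, was at 13.3, 48.8 and 106.7 CPM against 102.3, 102.8 and 107.6 CPM. Both cyclins overlapped between conditions through YFP-CTRL C alone.
Foxm1, a forkhead factor that activates G2 and M genes, was at 47.4, 101.5 and 156 CPM in YFP-CTRL EC and at 175, 150.5 and 156 CPM in Meis1-OE EC. Mybl2 stood apart from the rest. It was at 11.7, 12.7 and 41.9 CPM in YFP-CTRL EC and at 28.4, 26.6 and 28.2 CPM in Meis1-OE EC, so that YFP-CTRL C exceeded every Meis1-OE library and the Meis1-OE mean was 0.661 of YFP-CTRL C, the lowest such ratio of the 57 genes.

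Mitotic kinases differed strongly among the controls. Plk1, the polo kinase of spindle assembly and mitotic entry, was at 5.21, 19.4 and 54.3 CPM in YFP-CTRL EC and at 54.5, 50.2 and 54.6 CPM in Meis1-OE EC. YFP-CTRL C thus fell within the Meis1-OE range, whereas A was lower by an order of magnitude. Across the 6 kinases outside the passenger complex (Plk1, Aurka, Ttk, Bub1, Bub1b and Melk), the ratio of YFP-CTRL C to A had a median of 7.10, the highest among the 9 roles.
The chromosomal passenger complex, which corrects faulty attachments of chromosomes to the spindle, did not move as one. Its kinase Aurkb was at 4.59, 9.05 and 43.02 CPM in YFP-CTRL EC and at 42.7, 36.9 and 43.04 CPM in Meis1-OE EC, a C to A ratio of 9.37. Birc5 (survivin) was at 3.95, 11.4 and 26.3 CPM against 25.5, 25.03 and 23.3 CPM. Cdca8 (borealin), at 11.01, 20.4 and 26.5 CPM against 24.1, 23.9 and 23.6 CPM, had a ratio of only 2.40, and Incenp, the scaffold, had 3.38. In Birc5, Cdca8 and Incenp, YFP-CTRL C was above all 3 Meis1-OE libraries.

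Kinetochore genes included the gene with the widest range. Cenpa, the histone variant that marks centromeres (chr5:30666877-30674837, build GRCm38), was at 3.33, 16.2 and 43.6 CPM in YFP-CTRL EC and at 58.5, 58.4 and 58.6 CPM in Meis1-OE EC. All Meis1-OE libraries lay above all YFP-CTRL libraries, and the Meis1-OE mean was 1.34 times the value of YFP-CTRL C, the highest such ratio of the 57 genes. Cenpf, a large protein of the outer kinetochore, was at 12.1, 51.01 and 121.7 CPM against 156, 159 and 144 CPM, also without overlap.
Subunits of the Ndc80 complex, the rod that grips spindle microtubules, differed in the control libraries. Ndc80 was at 5.95, 19.3 and 21.7 CPM in YFP-CTRL EC and at 22.6, 25.2 and 25.3 CPM in Meis1-OE EC, so that YFP-CTRL B was already close to C. The C to B ratio was 1.13 for Ndc80, and it was 1.76, 1.66 and 2.26 for its partners Nuf2, Spc24 and Spc25.

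Switches of anaphase followed the same order of libraries. Cdc20, which activates the anaphase-promoting complex, was at 11.3, 29.6 and 69.04 CPM in YFP-CTRL EC and at 54.8, 50.8 and 53.8 CPM in Meis1-OE EC, with YFP-CTRL C above all Meis1-OE libraries. Espl1 (separase), the protease that cuts cohesin, also had YFP-CTRL C on top. By contrast, the checkpoint gene Mad2l1 was lower in YFP-CTRL C, at 42.8 CPM, than in any Meis1-OE library, where it was at 46.4, 47.9 and 46.6 CPM.

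Genes of chromosome structure ranged widely. Mki67 (chr7:135689784-135716450, build GRCm38), whose protein coats mitotic chromosomes and keeps them apart, had 63.8, 205 and 589 CPM in YFP-CTRL EC and 672, 660 and 628 CPM in Meis1-OE EC. Top2a, the topoisomerase that untangles sister chromatids, had 47.2, 108.6 and 278 CPM against 259, 292 and 293 CPM. YFP-CTRL C was below the Meis1-OE libraries for Mki67 and within them for Top2a. Smc4 (chr3:69004738-69034623, build GRCm38), a core subunit of condensin, varied least of the 57 genes, with 54.3, 77.1 and 98.9 CPM in YFP-CTRL EC and 105.7, 113 and 102.8 CPM in Meis1-OE EC. Condensin subunits were thus unlike in the controls, with C to A ratios of 1.82 for Smc4, 2.85 for Smc2, 4.46 for Ncaph, 5.26 for Ncapd2 and 5.55 for Ncapg.

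Motor, spindle and cytokinesis genes completed the set. Kif11, the kinesin that pushes spindle poles apart, was at 12.6, 35.2 and 64.2 CPM in YFP-CTRL EC and at 69.4, 74.3 and 73.9 CPM in Meis1-OE EC, without overlap. Among the 8 kinesins the C to A ratio ran from 4.26 for Kif15 to 9.92 for Kif14. The 6 spindle assembly genes had a median ratio of 4.92, with Nusap1, a microtubule bundler, reaching 10.5. Among the 5 genes of the midzone and cytokinesis, where Anln organizes the actin ring and Prc1 bundles midzone microtubules, the ratio ran from 2.81 for Anln to 6.88 for Kif23.

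**Figure D3:**
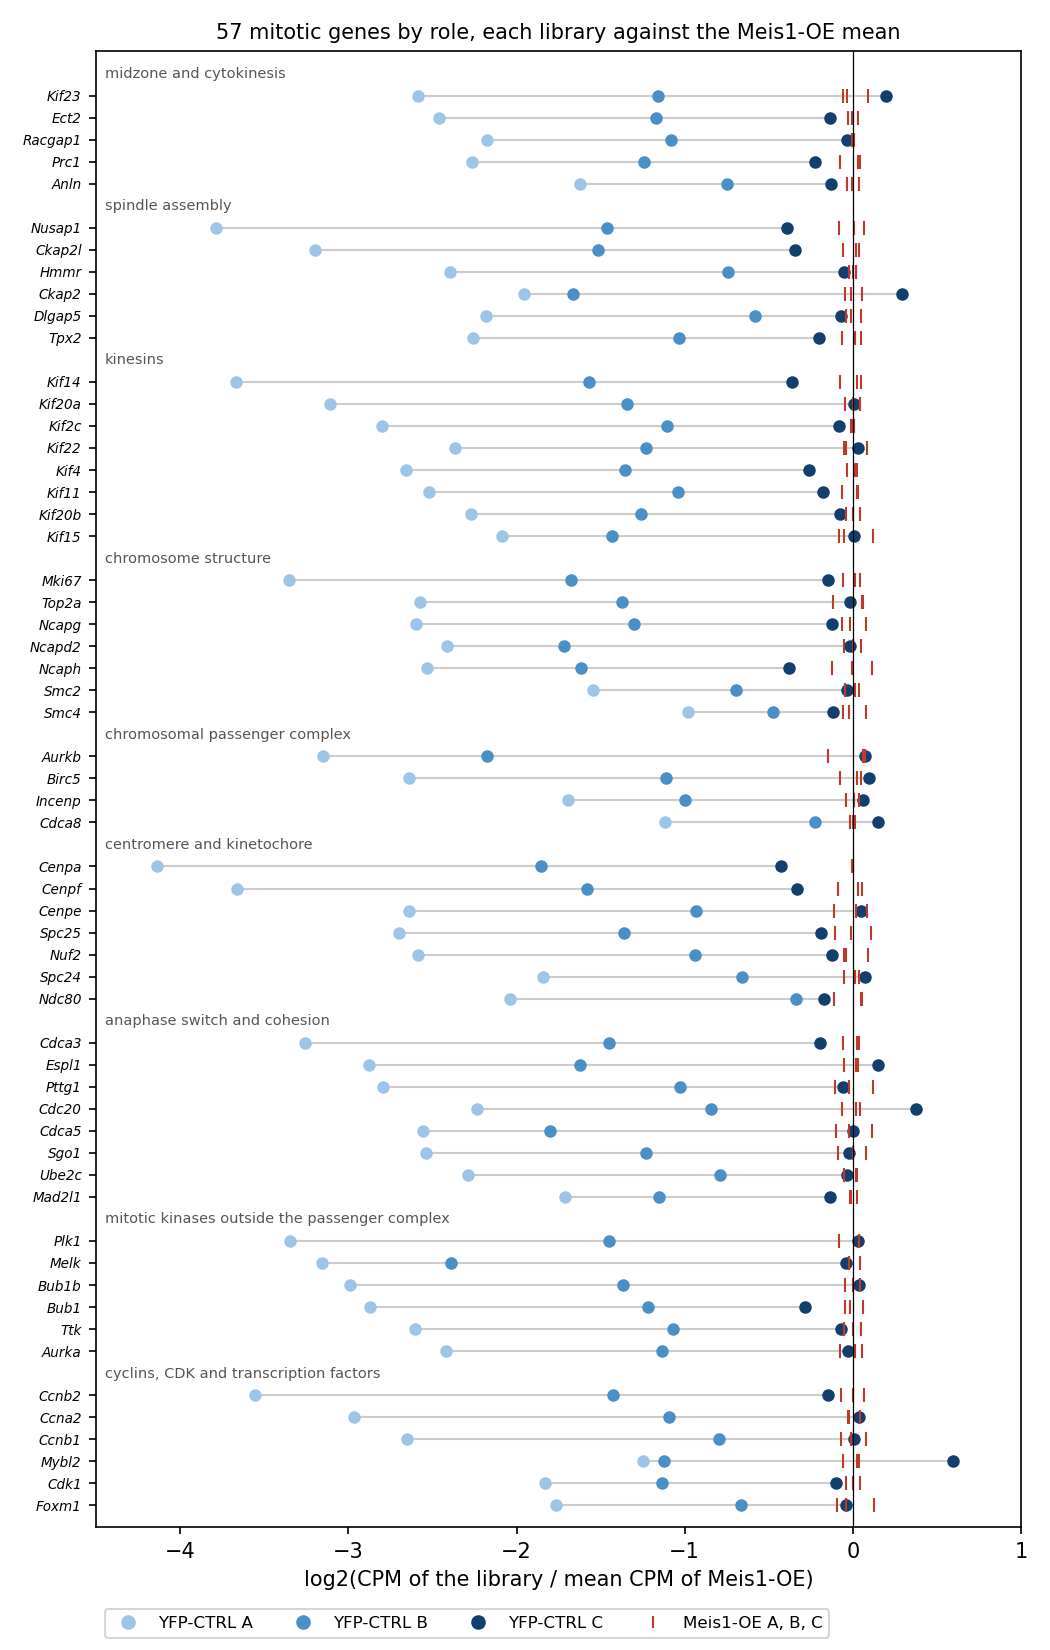
Each of the 57 mitotic genes by role, with the log2 ratio of each library's CPM to the Meis1-OE mean on the horizontal axis. YFP-CTRL A, B and C (light to dark circles) run from left to right in every row, and the Meis1-OE libraries (ticks) cluster around 0, with YFP-CTRL C farthest to their right for Mybl2.

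Against this spread the comparison of Meis1-OE with YFP-CTRL called none of the 57 genes. Under edgeR's quasi-likelihood F-test, adjusted by Benjamini-Hochberg over 16065 genes with a threshold of 0.05, 0 were higher and 0 lower, where 6.87% of all genes tested were called (4.14% higher and 2.73% lower). At an unadjusted p under 0.05, 2 were higher (Ncaph and Mad2l1) and 0 lower, where 12.8% of all genes tested were higher at that level. Over the alternatives this count of the 57 genes ran from 0 to 55 (38 with the column letter as a block, 17 without a filter, 16 by DESeq2 and 11 with library totals). The share of all genes at that level was not computed for the alternatives. Their counts therefore cannot be set against a shift of the whole table. The DESeq2 Wald test called 1 higher at its adjusted threshold (Ncaph), where it called 6.21% of all genes higher. All 57 log2 fold changes were positive, from 0.30 for Cdca8 to 1.47 for Cenpa, with a median of 0.92 beside 0.01 over all genes tested. Adjusted p-values from edgeR ran from 0.155 to 0.702. The conditions did not overlap for 30 of the 57 genes, all higher in Meis1-OE EC, against 17.2% of all genes tested that were higher and 15.9% that were lower. Since YFP-CTRL C was the highest control for every gene, that library decided which 30 they were.

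Estimates for single genes were wide rather than near 0. For Cenpa the log2 fold change was 1.47 (standard error 0.73, 95% interval -0.23 to 3.18), and edgeR gave it an adjusted p of 0.248. Mki67 was at 1.19 (standard error 0.66, interval -0.37 to 2.75), and its mean level was 653 CPM (SD 22.6) with Meis1-OE as opposed to 286 CPM (SD 272) with YFP-CTRL, over 3 libraries each. A fold of more than 4 for either gene lies inside its interval, as does no change. Ncaph, a condensin subunit, had the lowest adjusted p of the 57 genes (0.155 from edgeR), a log2 fold change of 1.24 (interval 0.13 to 2.35), and levels of 7.48, 14.1 and 33.3 CPM in YFP-CTRL EC against 39.8, 43.3 and 47.01 CPM in Meis1-OE EC. At the other end, Cdca8 was at 0.30 (interval -0.37 to 0.98) and Mybl2 at 0.32 (interval -0.77 to 1.42).

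A single control library decided the outcome. Without YFP-CTRL C, 52 of the 57 genes were higher in Meis1-OE EC by edgeR's adjusted p, where 16.5% of all genes tested were called higher, and the median log2 fold change was 1.67. The 5 that did not pass were Ccnb1, Ndc80, Cdca8, Hmmr and Dlgap5 (adjusted p from 0.0640 to 0.168 from edgeR). Without YFP-CTRL A 0 genes passed and the median was 0.50, and without YFP-CTRL B 0 passed and the median was 0.80. Leaving out any one Meis1-OE library also gave 0 calls, with medians from 0.92 to 0.93. Genes called higher over the whole table were 3.73%, 1.24%, 2.02%, 0.701% and 0.766% in these fits, without YFP-CTRL A, YFP-CTRL B and Meis1-OE A, B and C in turn. None of the 57 passed with DESeq2 size factors (4.04% of all genes called higher), library totals (6.52%), no filter (2.38%), a minimum of 10 counts per library (3.29%) or the column letter as a block (3.39%). For Mki67 the estimate was 2.26 when YFP-CTRL C was left out (edgeR adjusted p = 0.0146) and 0.72 when YFP-CTRL A was left out (edgeR adjusted p = 0.319). No source used here says which control culture stands for YFP-CTRL EC in general.

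**Figure D4:**
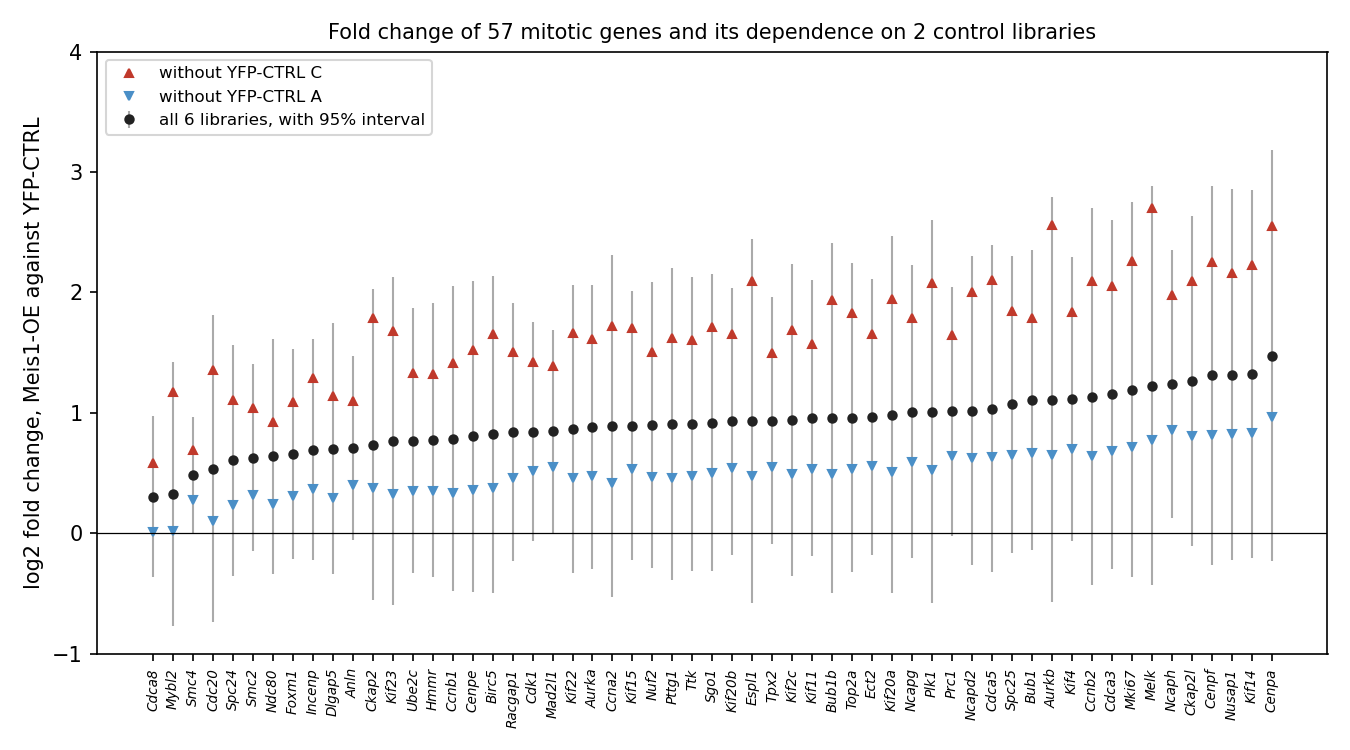
Log2 fold change of Meis1-OE against YFP-CTRL for the 57 genes, ordered by value, with 95% intervals from all 6 libraries (circles) and the estimates without YFP-CTRL C (up triangles) or without YFP-CTRL A (down triangles). YFP-CTRL C was the highest and A the lowest control for all 57 genes. It follows from this order that leaving out C places all 57 genes higher (median 1.67) and leaving out A places all 57 lower (median 0.50).

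Within the controls the climb from A to C was split differently among genes. From YFP-CTRL A to B the 57 genes had a median ratio of 2.47, and from B to C a median of 2.19. The 32 genes of S phase and replication had 1.16 and 2.28 for the same steps, and 11 of them were lower in B than in A, which was so for 0 of the 57. Expressed as the part of the A to C difference on the log2 scale that B had covered, the median was 56.2% for the mitosis and kinetochore genes (quartiles 47.4% and 62.4%) and 12.2% for the S phase genes (quartiles -12.7% and 33.0%). With 1 library at each step, these are descriptions of 3 cultures without a test. YFP-CTRL B thus held mitotic transcripts above those of A while most replication transcripts were near those of A.
Several mitotic genes lay below the upper quartile of the S phase genes in this respect. Mybl2, at 6.82%, had the lowest part covered in B, followed by Ckap2 (12.9%), Melk (24.6%), Ncapd2 (29.0%), Cdca5 (29.7%), Aurkb (30.3%) and Kif15 (31.1%), which were picked out after their values were seen. They include Ncapd2 and Kif15, the only genes of the 48 with one of the E2F forms in a promoter. Mybl2, Ckap2, Melk and Cdca5 held neither form, and no promoter was found for Aurkb. A link between these sites and the part covered in B was not tested. Ndc80, at 90.9%, was at the far end. Between the 36 genes with a CHR core and the 12 without, the C to A ratio had medians of 5.41 and 6.16 and overlapping ranges (2.40 to 13.1 and 2.98 to 10.5).

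**Figure D5:**
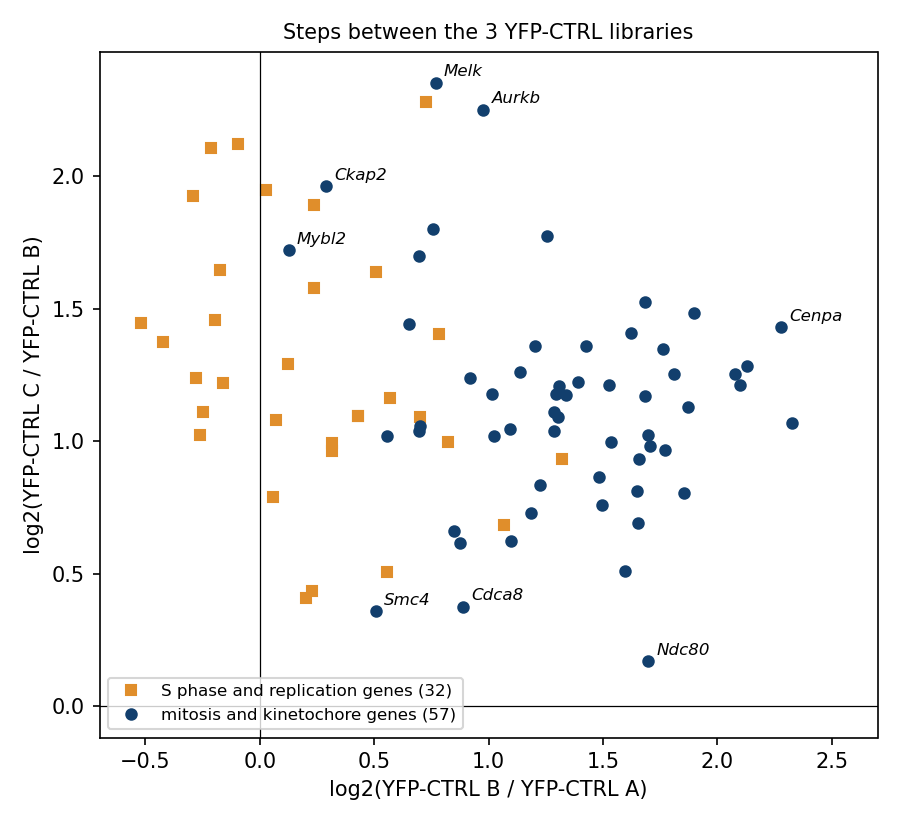
Log2 ratio of YFP-CTRL B to A (horizontal axis) against that of C to B (vertical axis) for the 57 mitosis and kinetochore genes (circles) and the 32 S phase and replication genes (squares). The mitotic genes lie to the right, with a median B to A ratio of 2.47 against 1.16, and Mybl2 and Ckap2 lie among the squares.

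Further genes of the pathway were not called by edgeR either, and they differed less among the controls at the median, though not in every gene. The order A, B, C held for 56 of 64 other mitotic genes and for 21 of 32 S phase genes. Their median C to A ratios were 3.63 and 2.82, with ranges of 1.03 to 14.3 and 1.52 to 8.03. The ratio was at least 5-fold for 19 of the 64 and 1 of the 32. The highest ratio of the other mitotic genes, 14.3, exceeded the 13.1 that was the highest of the 57 genes. Of 65 other mitotic genes listed, 64 were tested, and the remaining name, Casc5, is an older symbol of Knl1, which was among them. Of these 64, 0 passed the adjusted threshold in either direction by edgeR (11 higher at an unadjusted p under 0.05, and 3 by DESeq2). Their median log2 fold change was 0.75, and 2 were negative. The largest was that of Depdc1b, at 1.88 (adjusted p = 0.146 from edgeR). Of the 32 S phase and replication genes 0 passed by edgeR (6 higher at an unadjusted p under 0.05, and 3 by DESeq2), with a median of 0.77 and the largest value, 1.20, for Rrm2, a subunit of ribonucleotide reductase. Of all genes tested, 12.8% were higher at that unadjusted level in edgeR, and DESeq2 called 6.21% higher at its adjusted threshold. The same control library decided both lists. Without YFP-CTRL C, 51 of the other mitotic and 32 of the S phase genes were higher, where 16.5% of all genes tested were called higher.
Regulators other than Mybl2 and Foxm1 varied less among the controls at the median than the mitotic and S phase genes. These were 13 genes of the MuvB core, the pocket proteins, their E2F and DP partners and Mybl1. Their median C to A ratio was 1.29 (range 0.647 to 3.42). The highest control exceeded the lowest by a median of 1.54-fold for them, near the 1.48-fold over all genes tested. Mybl2 and Foxm1, which belong to the mitosis and kinetochore genes, had C to A ratios of 3.60 and 3.30. By edgeR's adjusted p 6.87% of all genes tested were called, and a share near that, 1 of the 13, passed. That was Mybl1 (A-Myb), a relative of Mybl2, at 8.30, 10.3 and 16.02 CPM in YFP-CTRL EC and 23.9, 28.6 and 27.7 CPM in Meis1-OE EC, which is 1.21 higher on the log2 scale (standard error 0.24, edgeR adjusted p = 0.0331). Its conditions did not overlap. Rbl2 (p130), the pocket protein of resting cells, was at 14.2, 10.5 and 21.8 CPM against 30.8, 29.7 and 32.4 CPM, a log2 difference of 0.996 that missed the threshold (edgeR adjusted p = 0.0609). Rb1 (the retinoblastoma protein) was at 14.3, 17.3 and 18.5 CPM against 23.7, 24.6 and 25.8 CPM (edgeR adjusted p = 0.0538). In the other direction, E2f4 was at 59.7, 64.2 and 74.8 CPM in the controls and 52.0, 52.3 and 54.7 CPM with Meis1-OE (log2 difference -0.32, edgeR adjusted p = 0.146). Rb1 and E2f4 were picked after their values were seen. Of the 13 genes 6 did not overlap with Meis1-OE EC higher and 1 with it lower, against 17.2% and 15.9% of all genes tested.

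Acta2 and Gm26917, picked after their values were seen, also stood in the order A, B, C in the controls. That order was held by 25.6% of the genes tested. Acta2, a contractile gene of smooth muscle, was at 0.206, 2.18 and 19.9 CPM in YFP-CTRL EC and at 3.33, 1.41 and 0.993 CPM in Meis1-OE EC, whereas Tagln, Cnn1 and Myh11 of the same cells stayed at or under 0.638 CPM in every library. The transcript Gm26917 took 11.8%, 13.0% and 14.1% of the counts in YFP-CTRL EC and 8.06%, 9.31% and 10.5% in Meis1-OE EC, rising from A to C in both conditions. Their part in the levels of the mitotic genes was not tested.

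Levels were compared between genes only per kilobase of exon (CPM of Meis1-OE EC per kb of GENCODE vM1 exons joined over all transcripts). The 57 genes ran from 2.90 for Kif14 to 64.8 for Mki67, with a median of 12.4 CPM per kb. Anln followed at 41.8 and Top2a at 31.04 CPM per kb. Partners within one complex differed on this scale, with Incenp at 30.8, Aurkb at 13.9, Birc5 at 7.21 and Cdca8 at 4.61 CPM per kb in the passenger complex. In the Ndc80 complex the values were 14.8 for Nuf2, 11.1 for Ndc80, 8.17 for Spc24 and 4.51 CPM per kb for Spc25. Exon lengths include every listed transcript end, so a gene with long alternative ends is set lower than its main transcript would be. For 19 of the 57 genes, among them Cenpa, Ndc80, Spc24, Birc5, Cdca8 and Mybl2, counts were not whole in at least 1 library (by more than 0.01), and these levels are less certain, since such counts can arise where reads are shared with other loci, which was not tested.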

How the data were processed

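Total RNA was sequenced after ribodepletion from 3 Meis1-OE and 3 YFP-CTRL libraries. The authors deposited estimated counts per gene symbol, not normalized, in 1 table of 54429 genes (27948 with a count). The submitters' processing notes name build mm10, and the aligner, the counter and the annotation are not given in the sources used here, nor whether counting used strand. Each column name gives a condition and a letter.

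Counts were rounded and tested in R 4.3.3 with edgeR 4.0.16 (TMM, filterByExpr, quasi-likelihood test, Benjamini-Hochberg over 16065 genes, threshold 0.05, biological coefficient of variation 0.233). DESeq2 1.42.0, which the study's methods name, was an alternative. Standard errors were the absolute log2 fold change over the square root of F. With 3 libraries against 3, an exact two-sided permutation test cannot go below 0.1, so no gene was tested outside the model. Both programs were tested on simulated data. Counting intervals leave out amplification and culture differences (the libraries are taken to carry no molecular identifiers), and p-values cover only the spread between these libraries. The 57 genes and the lists were chosen with earlier results of these data known. Named were 14 fixed genes, those with extreme fold changes or control ratios, and up to 3 per other list, and any other gene named was picked after its values were seen. Python 3.11.15 and matplotlib 3.10.9 made the figures. Promoters are from RefSeq and exon lengths from GENCODE vM1, whose build NCBIM37 was used for lengths only.

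Alternatives were size factors from DESeq2 within edgeR, raw library totals, an unfiltered table, a minimum of 10 counts per library, the DESeq2 test, the column letter as a replicate block, and each library left out in turn.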

Additional observations from a re-analysis of the deposited data

How the results depend on the processing

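All 57 log2 fold changes were positive under each of the 12 alternatives. No mitotic gene passed the adjusted threshold with DESeq2 size factors, library totals (which moved the median of all genes tested to 0.15 and that of the 57 genes to 1.07), no filter or at least 10 counts in every library. DESeq2 called 1 of the 57 genes, 3 of the other mitotic genes and 3 of the S phase genes higher. Leaving out 1 library at a time gave 0 to 52 of the 57 genes, 0 to 51 of the other mitotic genes and 0 to 32 of the S phase genes, with every call from the fit without YFP-CTRL C and none lower. The median of the 57 genes ran from 0.50 (without YFP-CTRL A) to 1.67 (without YFP-CTRL C). No label ties the column letters to replicate numbers or to pairs, so the libraries were not taken as pairs in the main fit. Deviations of same-letter libraries from their condition means correlated across genes at 0.245, 0.190 and 0.0809 for A, B and C. Between unlike letters the correlation was 0.249 for Meis1-OE C with YFP-CTRL B and negative for all others, down to -0.301. Whether the letters are pairs was not tested. With the letter as a replicate block, 0 of the 57 genes passed, the median was 1.22, and genes called over the whole table went from 665 higher and 438 lower to 544 and 189. Among the 57 genes the lowest count in any library was 55 (Nusap1 in YFP-CTRL A).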
